A study of Mus musculus with 4 samples.

Results

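Lmx1a, Fev, Nkx2-2, Mnx1 and Egr3 are 5 transcription factor genes studied here for their place on the path to serotonin-producing enterochromaffin cells. The 5 genes were given as a list and found by symbol in the deposited count table, which holds 29161 genes, 29120 of them paired with a symbol. They were followed in 290 single cells, against Tph1, which encodes the enzyme that starts serotonin synthesis in the gut, and Neurog3, which encodes the transcription factor that starts the endocrine programme.

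The cells were sorted from enteroids, epithelial mini-guts grown from the small intestine of female CD1 mice that carry 1 Neurog3eYFP reporter allele (Neurog3eYFP/+). Living cells positive for eYFP went into 4 plates, 1 cell per well, and their polyadenylated RNA was read with a plate-based kit. Plates 1, 2 and 3 held duodenum enteroids (replicates 1, 2 and 3) and plate 4 jejunum enteroids (replicate 1). The mice were 39 weeks old for plate 1 and 12 weeks old for the other plates. All cells compared here carry the reporter allele and passed the eYFP gate, so each comparison is between cells of the Neurog3 lineage as the reporter marks it.

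Of 368 sorted cells, 290 were in the table, with 72, 83, 72 and 63 in plates 1 to 4. Plate totals ran from 23893272 counts in plate 1 to 46490618 in plate 4, and single cells held 202711 to 2312044. Levels are given in CPM, counts per 1000000 counts. They are not corrected for gene length, so levels of different genes are not compared.

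Enterochromaffin cells are the endocrine cells of the gut that make serotonin and release it in response to luminal stimuli. Like the cells that make peptide hormones, they descend from crypt progenitors that switch on Neurog3 briefly. Nkx2-2 encodes a homeodomain factor needed for endocrine subtype choice in gut and pancreas. Lmx1a encodes a LIM-homeodomain factor known to act after Nkx2-2 and to be needed for Tph1 expression in the intestine. Fev, also called Pet1, encodes an ETS factor best known from serotonin neurons of the brain. Mnx1 encodes a homeodomain factor of motor neurons and pancreatic beta cells. Egr3 encodes a zinc-finger factor of the immediate-early kind, induced quickly by stimuli.

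All 5 are protein-coding genes in GRCm38 with the GENCODE M21 annotation. Lmx1a (ENSMUSG00000026686) spans chromosome 1, 167689237 to 167848741, on the plus strand. Fev (ENSMUSG00000055197) spans chromosome 1, 74881509 to 74885419, on the minus strand. Nkx2-2 (ENSMUSG00000027434) spans chromosome 2, 147177546 to 147194243, on the minus strand. Mnx1 (ENSMUSG00000001566) spans chromosome 5, 29473034 to 29478470, on the minus strand. Egr3 (ENSMUSG00000033730) spans chromosome 14, 70077203 to 70082614, on the plus strand. An antisense gene, Nkx2-2os (ENSMUSG00000086509), overlaps Nkx2-2. It had 0, 0, 0 and 2 counts in plates 1 to 4. The sources used here do not say whether the counting used strand.

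The sequence before the RefSeq start is shown for 4 of the genes, as the source used here held no promoter window for Egr3. RefSeq (GRCm38.p6) gives promoter windows for Lmx1a, Fev, Nkx2-2 and Mnx1, and the 250 bases before that start are printed 5′ to 3′ on the gene's strand. They lie at chr1:167689308-167689557 (plus), chr1:74885409-74885658 (minus), chr2:147186403-147186652 (minus) and chr5:29478471-29478720 (minus). RefSeq starts differ from the ends of the GENCODE spans given above, so the Lmx1a and Nkx2-2 windows lie inside those spans and the Fev window overlaps its span at one end. Capitals mark the E-box CANNTG, the motif that basic helix-loop-helix factors such as NEUROG3 recognise.
Lmx1a: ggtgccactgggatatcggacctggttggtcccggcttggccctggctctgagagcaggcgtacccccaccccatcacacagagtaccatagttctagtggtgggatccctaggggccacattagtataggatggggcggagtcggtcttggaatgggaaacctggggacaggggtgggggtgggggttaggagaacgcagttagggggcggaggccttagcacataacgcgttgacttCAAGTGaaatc
Fev: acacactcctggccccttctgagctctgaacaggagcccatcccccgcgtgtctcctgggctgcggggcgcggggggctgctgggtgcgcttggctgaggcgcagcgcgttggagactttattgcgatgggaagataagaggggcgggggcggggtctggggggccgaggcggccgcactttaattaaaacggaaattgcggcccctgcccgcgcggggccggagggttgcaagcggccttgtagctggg
Nkx2-2: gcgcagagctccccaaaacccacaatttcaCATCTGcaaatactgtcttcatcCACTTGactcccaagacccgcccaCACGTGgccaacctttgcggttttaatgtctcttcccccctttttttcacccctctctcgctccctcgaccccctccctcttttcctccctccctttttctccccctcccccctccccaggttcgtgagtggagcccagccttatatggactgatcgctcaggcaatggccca
Mnx1: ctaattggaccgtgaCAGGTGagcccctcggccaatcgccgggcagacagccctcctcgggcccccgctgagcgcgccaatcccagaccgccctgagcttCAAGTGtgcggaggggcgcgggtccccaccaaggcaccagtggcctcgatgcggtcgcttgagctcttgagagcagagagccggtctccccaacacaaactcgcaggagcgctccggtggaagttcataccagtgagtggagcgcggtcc

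The 4 windows held 1, 0, 3 and 2 E-boxes for Lmx1a, Fev, Nkx2-2 and Mnx1. An E-box was in 66.2% of 32851 windows of this length, so its presence is common. One E-box in each of Lmx1a, Nkx2-2 and Mnx1 read CAAGTG (or CACTTG on the other strand). It began 11 bases before the RefSeq start of Lmx1a, 197 before that of Nkx2-2 and 150 before that of Mnx1. That 6-letter form was in 11.6% of all windows, and it was searched for after the sequences had been seen. It contains AAGTG (or CACTT), the core bound by NKX2 factors, which overlaps it in these 3 windows and also lies 74 bases before the Fev RefSeq start. AAGTG or CACTT was in 40.7% of all windows. The homeodomain core TAAT (or ATTA) was in all 4 windows and in 54.9% of all windows. The EGR motif GCGNGGGCG (or CGCCCNCGC) was in the Fev window, 107 bases before the RefSeq start, and in 4.70% of all windows. The ETS core CCGGAA (or TTCCGG) was in none of the 4 and in 12.0% of all windows. These matches describe letters and were not tested as binding sites.

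A single read of a gene in a well did not separate cells, because low counts occurred across whole plates. Every cell of every plate (100%) had a count of Fev, and Lmx1a was counted in 65.3%, 84.3%, 87.5% and 100% of plates 1 to 4. A cell was therefore called above the cross-well level of a gene when its count was 5 or more and made up 0.5% or more of all counts of the gene in that plate. Medians on the 2 sides of the level differ by construction and describe how far apart the sides lay. Cells also lay between them, as in plate 4, where 56 cells held at least 5 Lmx1a counts and 27 were above the level. Cells below the Lmx1a level had a median of 1, 2, 2 and 8 Lmx1a counts in plates 1 to 4, and cells above it 279, 469, 472 and 573. For Fev the medians were 6, 13, 9.5 and 49.5 counts below and 675, 894, 665 and 1313 above. For Nkx2-2 they were 0, 3, 1 and 5 below and 58, 65, 214 and 142.5 above.

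Cells unlike endocrine cells gave the background. In the remaining cells (defined next), 59 held at least 3 of 12 goblet and Paneth marker genes above the cross-well level, at a median depth of 397363 counts. Lmx1a had at least 1 count in 66.1% of them, yet 0 of 59 were above its level, which allows a share of up to 5.08%. Fev was above its level in 15.3% of these cells and Nkx2-2 in 23.7%, against 87.7% and 71.6% of the 81 Tph1-high cells at a median of 482073 counts. Mnx1 was above its level in 5.08% of the goblet and Paneth marker cells and 30.9% of the Tph1-high cells, and Egr3 in 3.39% and 23.5%. With at least 1 count in place of the level, the same 2 sets gave 62.7% and 91.4% for Nkx2-2, 18.6% and 48.1% for Mnx1, and 20.3% and 28.4% for Egr3. Some Nkx2-2 and Fev was thus found in cells rich in goblet or Paneth transcripts, and Lmx1a was not detectable there above its level. The 59 cells came as 23, 16, 11 and 9 from plates 1 to 4, and the Tph1-high cells as 18, 23, 14 and 26. The part of plate, age or depth in this contrast was not tested.

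Cells were placed in exclusive classes by the same level. Neurog3-high cells were above it for Neurog3 and not Tph1 (4, 9, 16 and 5 cells in plates 1 to 4, 34 in all). Double cells were above it for both (3, 2, 6 and 2, 13 in all). Tph1-high cells were above it for Tph1 and not Neurog3 (18, 23, 14 and 26, 81 in all). Peptide-high cells were above it for neither but for at least 1 of Gip, Gcg, Cck, Sst, Nts, Pyy and Ghrl (5, 22, 9 and 14, 50 in all). The other 112 cells are the remaining cells (42, 27, 27 and 16). These classes are ranges of a few transcripts and not cell types, and no time was measured. Within 2-fold of the Tph1 level lay 0, 5, 4 and 5 cells in plates 1 to 4, against 21, 25, 20 and 28 above it. Within 2-fold of the Neurog3 level lay 2, 0, 8 and 0 cells, against 7, 11, 22 and 7 above it. With the level at 1%, 16 cells of plate 3 were above it for Neurog3. The Neurog3 level was 5, 33.4, 7.75 and 5 counts in plates 1 to 4. Cells above it ran from 10.9 to 2951 CPM of Neurog3. Median depth was 383678 counts in Neurog3-high, 431564 in double, 482073 in Tph1-high, 475357 in peptide-high and 364469 in remaining cells.

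The classes carried the markers of their names to different degrees. The summed level of 7 enterochromaffin markers (Tph1 among them) was 8944 to 26102 CPM in Tph1-high cells and 624 to 3478 CPM in Neurog3-high cells over the plates. Tph1 alone was 1784, 1525, 1748 and 3343 CPM in Tph1-high cells of plates 1 to 4. The summed level of 7 progenitor markers (Neurog3 among them) was 317 to 350 CPM in Tph1-high and 1120 to 2630 CPM in Neurog3-high cells. Neurog3 alone was 102, 1353, 134 and 225 CPM in Neurog3-high cells of plates 1 to 4. The same 7 markers summed to 758 to 932 CPM in remaining and 483 to 698 CPM in peptide-high cells. The class genes thus enter these sums, and much of the progenitor sum was also found in remaining cells. Goblet markers also differed, at 488 to 1415 CPM in Tph1-high, 6802 to 19384 CPM in Neurog3-high, 2853 to 9725 CPM in peptide-high and 17729 to 23314 CPM in remaining cells. Paneth markers summed to 222 to 392 CPM in Tph1-high, 229 to 27353 CPM in Neurog3-high and 799 to 3757 CPM in peptide-high cells. The part of these transcripts in the differences between classes was not tested. In Neurog3-high and double cells, the immune markers Ptprc and Cd3e and both tuft markers in the table were at 0 in every plate. Other lists were not at 0 there. The mesenchyme markers Col1a1 and Col3a1 summed to 0 to 120 CPM in double and 0 to 1.06 CPM in Neurog3-high cells. The cycling markers Mki67, Top2a and Ccnb1 summed to 0 to 109 CPM in double and 0 to 105 CPM in Neurog3-high cells.

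Among the 5 genes, Lmx1a had the largest share of its cells above the Tph1 level. Over all cells it also had the highest mean correlation with Tph1. Its level in Tph1-high cells was 496, 1119, 843 and 791 CPM in plates 1 to 4. In double cells it was 1133, 860, 712 and 710 CPM. In Neurog3-high cells it was 314, 5.46, 10.4 and 155 CPM. Thus the Tph1-high and double cells overlapped, and both stood above the Neurog3-high cells in every plate. The high Neurog3-high values of plates 1 and 4 each came from 1 cell, which held 99.5% and 94.0% of the Lmx1a counts of that class. In peptide-high cells Lmx1a was 5.23, 18.4, 6.98 and 11.0 CPM, and in remaining cells 31.5, 41.7, 38.2 and 91.9 CPM. The remaining-cell sums rest largely on single cells, as 1 cell held 48.8%, 90.7%, 71.9% and 72.5% of the Lmx1a counts of that class. Per cell, the medians of plates 1 to 3 ran the other way, at 4.97, 5.05 and 4.92 CPM in peptide-high and 2.56, 3.47 and 3.57 CPM in remaining cells.

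Counted by cell, Lmx1a was above its level in 60 of 81 Tph1-high cells (74.1%) and 12 of 13 double cells (92.3%). It was above it in 2 of 34 Neurog3-high cells (5.88%), 1 of 50 peptide-high cells (2.00%) and 7 of 112 remaining cells (6.25%). Of all 82 cells above the Lmx1a level, 72 (87.8%, exact 95% interval 78.7 to 94.0) were above the Tph1 level. By plate this share was 84.2%, 90.5%, 86.7% and 88.9%. With the level at 0.2% it was 81 of 86 cells (94.2%), which lies outside that interval. With the level at 1% it was 64 of 74 cells (86.5%). Of the 14 cells above the level for both Neurog3 and Lmx1a, 12 were also above it for Tph1, so Lmx1a with Neurog3 but without Tph1 was seen in 2 cells. One of these, in plate 4, held 299 Tph1 counts against a level of 403, and the other, in plate 1, held 0 Tph1 counts and 13 Neurog3 counts. Of the 10 Lmx1a cells below the Tph1 level, all were above the Fev level. They included 2 remaining cells of plate 4 with 345 and 308 Tph1 counts, also below the level of 403. That level was 67.4, 93.3 and 80.3 counts in plates 1 to 3. Intervals cover counting error only.

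**Figure D1:**
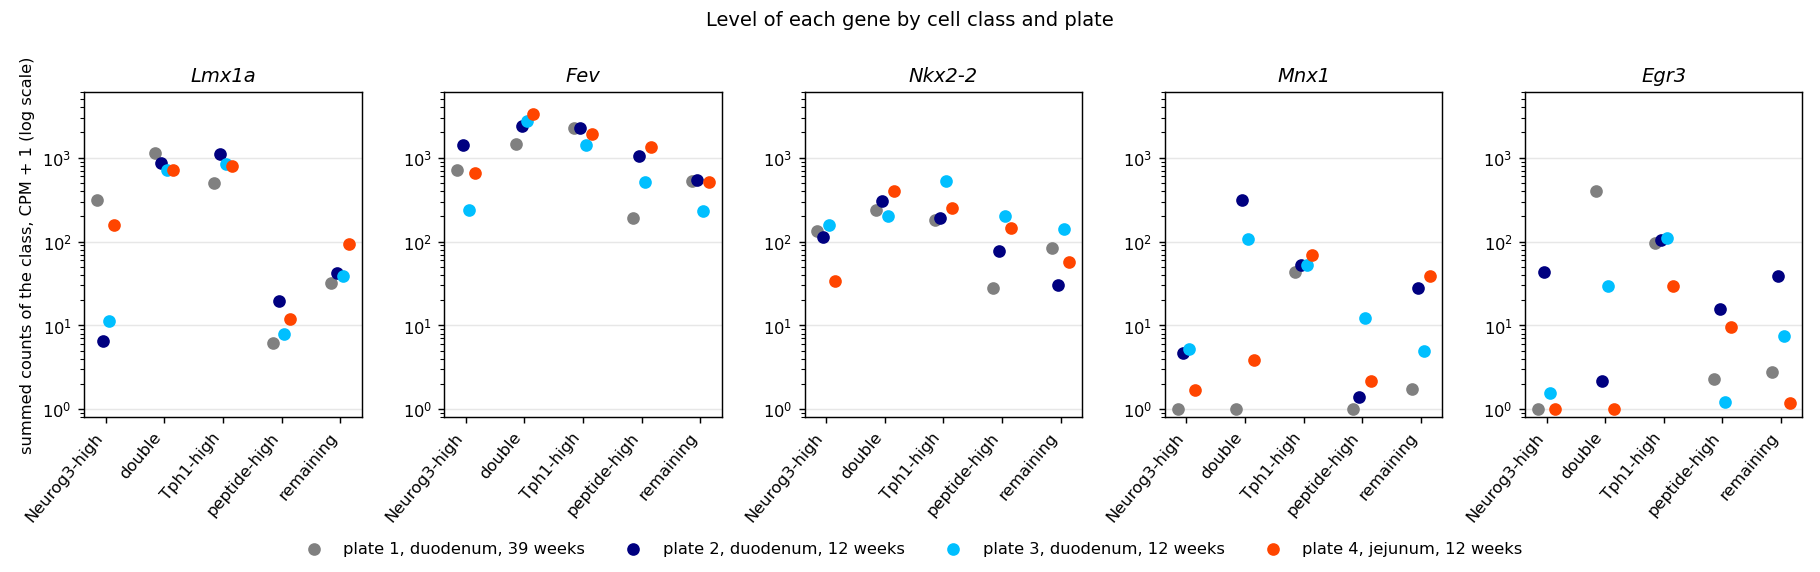
Level of Lmx1a, Fev, Nkx2-2, Mnx1 and Egr3 (columns) by cell class (x axis), as CPM + 1 of the summed counts on a log scale, with 1 point per plate. Lmx1a sits at 496 to 1119 CPM in Tph1-high cells and at 5.23 to 18.4 CPM in peptide-high cells, while Fev stays above 190 CPM in every class.

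Fev marked a wider set of cells. Its level in Tph1-high cells was 2278, 2258, 1401 and 1919 CPM, and in double cells 1454, 2404, 2772 and 3358 CPM. In Neurog3-high cells it was 716, 1411, 237 and 648 CPM, so the plate values of Neurog3-high and Tph1-high cells overlapped (1411 and 1401 CPM). In each plate 1 cell held most of the Neurog3-high Fev counts, at 75.3%, 64.9%, 53.5% and 52.7%. Peptide-high cells had 191, 1050, 512 and 1347 CPM and remaining cells 528, 546, 233 and 515 CPM. Fev was above its level in 71 of 81 Tph1-high cells (87.7%), 12 of 13 double cells (92.3%) and 30 of 50 peptide-high cells (60.0%). It was also above it in 11 of 34 Neurog3-high cells (32.4%) and 27 of 112 remaining cells (24.1%). Of 151 cells above the Fev level, 83 (55.0%, interval 46.7 to 63.1) were above the Tph1 level. By plate this share was 61.3%, 44.4%, 53.3% and 62.2%.

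Nkx2-2 was found in every class. It was 180.3, 189, 527 and 249 CPM in Tph1-high cells of plates 1 to 4, 239.5, 299.9, 201 and 400.0 CPM in double cells, and 133, 111, 157 and 32.6 CPM in Neurog3-high cells. Tph1-high values were above Neurog3-high values in every plate. In plate 1 the cell medians ran the other way, at 161.5 CPM in Neurog3-high and 48.4 CPM in Tph1-high cells. In plate 4, 1 cell held 96.7% of the Nkx2-2 counts of double cells, and 1 held 91.3% of those of Neurog3-high cells. Peptide-high cells had 26.8, 77.2, 200.1 and 146 CPM, and remaining cells 82.7, 29.3, 139.9 and 56.0 CPM. These overlapped the Neurog3-high values. Nkx2-2 was above its level in 58 of 81 Tph1-high cells (71.6%), 9 of 13 double cells (69.2%), 26 of 50 peptide-high cells (52.0%), 14 of 34 Neurog3-high cells (41.2%) and 29 of 112 remaining cells (25.9%). Of its 136 cells, 67 (49.3%, interval 40.6 to 58.0) were above the Tph1 level. By plate this share was 41.4%, 55.3%, 38.7% and 57.9%.

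Mnx1 was sparse. It was 42.9, 52.2, 51.2 and 67.8 CPM in Tph1-high cells of plates 1 to 4 and 0, 3.64, 4.17 and 0.71 CPM in Neurog3-high cells, so these did not overlap. Double cells had 0, 310.5, 106 and 2.92 CPM and peptide-high cells 0, 0.41, 11.4 and 1.16 CPM. In plate 2, 1 of the 2 double cells held 100% of the Mnx1 counts of that class. In plate 3, 1 peptide-high cell held 100% of those of its class. Remaining cells had 0.76, 27.0, 3.92 and 38.3 CPM. Only 25 of 81 Tph1-high cells (30.9%) were above the Mnx1 level, and 1 cell held 93.0% of the Mnx1 counts of that class in plate 1. Of the 40 cells above the Mnx1 level, 28 (70.0%, interval 53.5 to 83.4) were above the Tph1 level and 5 (12.5%) above the Neurog3 level. The Tph1 share by plate was 75.0%, 66.7%, 60.0% and 81.8%, of 4, 15, 10 and 11 cells.

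Egr3 was above its level in 30 cells over all plates, the fewest of the 5 genes. It was 94.2, 104, 109.9 and 28.9 CPM in Tph1-high cells of plates 1 to 4 and 0, 42.9, 0.58 and 0 CPM in Neurog3-high cells, where 1 cell of plate 2 held 93.9% of that plate's class counts. Double cells had 398.7, 1.18, 28.2 and 0 CPM, peptide-high cells 1.31, 14.6, 0.23 and 8.49 CPM, and remaining cells 1.82, 38.0, 6.40 and 0.20 CPM. Of the double counts of plate 1, 1 cell held 99.1%. In plate 2, 1 cell held 98.6% of the peptide-high and 1 cell 98.7% of the remaining counts. It was above its level in 19 of 81 Tph1-high cells (23.5%). The class level rested on single cells there too, since the top cell held 29.9%, 58.4%, 76.8% and 84.1% of the Tph1-high counts in plates 1 to 4. Of 30 cells above the Egr3 level, 21 (70.0%, interval 50.6 to 85.3) were above the Tph1 level. By plate this share was 81.8%, 57.1%, 66.7% and 66.7%, of 11, 7, 6 and 6 cells.

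**Figure D2:**
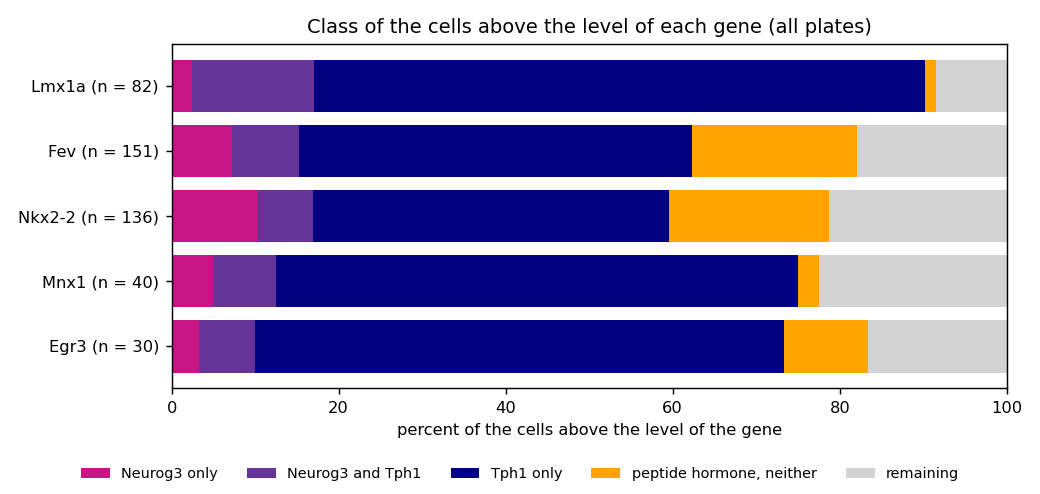
Class of the cells above the cross-well level of each gene, as a percent of those cells over all plates (x axis, stacked bars that start at 0; n is the number of cells). Tph1 cells, with or without Neurog3, make up 87.8% of the Lmx1a bar, 55.0% of the Fev bar and 49.3% of the Nkx2-2 bar.

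Set in the order Neurog3-high, double, Tph1-high, the shares of cells above each level describe how far the genes overlap with the 2 ends. Pooled over plates, Nkx2-2 went from 41.2% to 69.2% and 71.6%, and Fev from 32.4% to 92.3% and 87.7%. By plate, the Nkx2-2 share of Neurog3-high cells was 75.0%, 55.6%, 31.25% and 20.0%. In double cells it was 100%, 100%, 50.0% and 50.0%, and in Tph1-high cells 50.0%, 82.6%, 64.3% and 80.8%. In plate 1 the Neurog3-high share thus exceeded the Tph1-high share. Lmx1a went from 5.88% to 92.3% and 74.1%. Mnx1 went from 5.88% to 23.1% and 30.9%, and Egr3 from 2.94% to 15.4% and 23.5%. In the remaining cells, a class with no class gene above its level, the Nkx2-2 share was 25.9% and the Fev share 24.1%. Levels differ between genes in counts (14 to 42 for Nkx2-2, 119 to 340 for Fev and 28 to 100 for Lmx1a over the plates), so the order of the shares is a description. Whether some wells held more than 1 cell was not tested.

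Most cells above the Lmx1a level were also above that of Fev. Of all 290 cells, 151 were above the Fev level, 82 that of Lmx1a, 40 that of Mnx1 and 30 that of Egr3. The overlaps below are to be read beside these numbers and were not tested. Of 82 cells above the Lmx1a level, 77 (93.9%) were above that of Fev, but those 77 were 51.0% of the 151 Fev cells. The 5 Lmx1a cells below the Fev level were all Tph1-high. The 74 Fev cells below the Lmx1a level were spread over 29 peptide-high, 20 remaining, 16 Tph1-high, 9 Neurog3-high and 0 double cells. Lmx1a, Fev and Nkx2-2 were all above their levels in 53 cells, namely 39 Tph1-high, 8 double, 4 remaining, 2 Neurog3-high and 0 peptide-high cells. Of the 40 Mnx1 cells, 33 (82.5%) were above the Fev level and 26 (65.0%) above that of Lmx1a. Of the 30 Egr3 cells, 24 (80.0%) were above the Fev level and 18 (60.0%) above that of Lmx1a. Mnx1 and Egr3 shared 5 cells, which is 12.5% of the Mnx1 cells and 16.7% of the Egr3 cells. At least 1 of the 5 genes was above its level in 80 of 81 Tph1-high cells and 13 of 13 double cells, and in 203 of 290 cells in all (70.0%).

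Not every cell high in Tph1 was high in Lmx1a. Of the 94 cells above the Tph1 level, 76.6% were above that of Lmx1a, 88.3% that of Fev, 71.3% that of Nkx2-2, 29.8% that of Mnx1 and 22.3% that of Egr3. The 22 Tph1 cells below the Lmx1a level were spread over the 4 plates, and they included 1 cell of plate 3 with 4376 CPM of Tph1 and 0 counts of Lmx1a. Of the 47 cells above the Neurog3 level, 48.9% were above that of Fev, 48.9% that of Nkx2-2, 29.8% that of Lmx1a, 10.6% that of Mnx1 and 6.38% that of Egr3.

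Across cells within a plate, each gene was followed against Tph1 CPM and Neurog3 CPM. These correlations are over 72, 83, 72 and 63 cells that share a library and are given as a description. Spearman's rho of Lmx1a with Tph1 was 0.50, 0.62, 0.40 and 0.80 in plates 1 to 4, and that of Fev with Tph1 was 0.47, 0.29, 0.44 and 0.59. Nkx2-2 had 0.30, 0.34, 0.11 and 0.39, Mnx1 had 0.21, 0.43, 0.25 and 0.29, and Egr3 had 0.48, 0.06, 0.08 and -0.04. Against Neurog3 the values ran from 0.002 to 0.12 for Lmx1a, from -0.15 to 0.04 for Fev, from -0.19 to 0.22 for Nkx2-2, from -0.09 to 0.06 for Mnx1 and from -0.06 to 0.14 for Egr3. By rho, no member followed Neurog3 closely in any plate. Neurog3 had at least 1 count in 31.9%, 30.1%, 41.7% and 27.0% of cells, so most cells were tied at 0. Of cells above the Neurog3 level, 85.7%, 63.6%, 36.4% and 28.6% in plates 1 to 4 were above the Nkx2-2 level. Among all cells this share was 40.3%, 45.8%, 43.1% and 60.3%. For Fev the shares were 71.4%, 54.5%, 36.4% and 57.1%, against 43.1%, 54.2%, 41.7% and 71.4% of all cells. Among 5713 genes with at least 1 count in at least 20% of the cells of every plate, Lmx1a had the sixth highest mean rho with Tph1 (0.58, rank 6) and Fev had rank 22 (0.45). These values span cells on both sides of the Tph1 level. Within the 21, 25, 20 and 28 cells above it, rho with Tph1 was 0.37, -0.04, -0.03 and 0.39 for Lmx1a. For Fev it was -0.21, 0.34, 0.08 and 0.27 there. It ran from -0.22 to 0.49 for Nkx2-2, from -0.20 to 0.11 for Mnx1 and from -0.04 to 0.53 for Egr3.

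**Figure D3:**
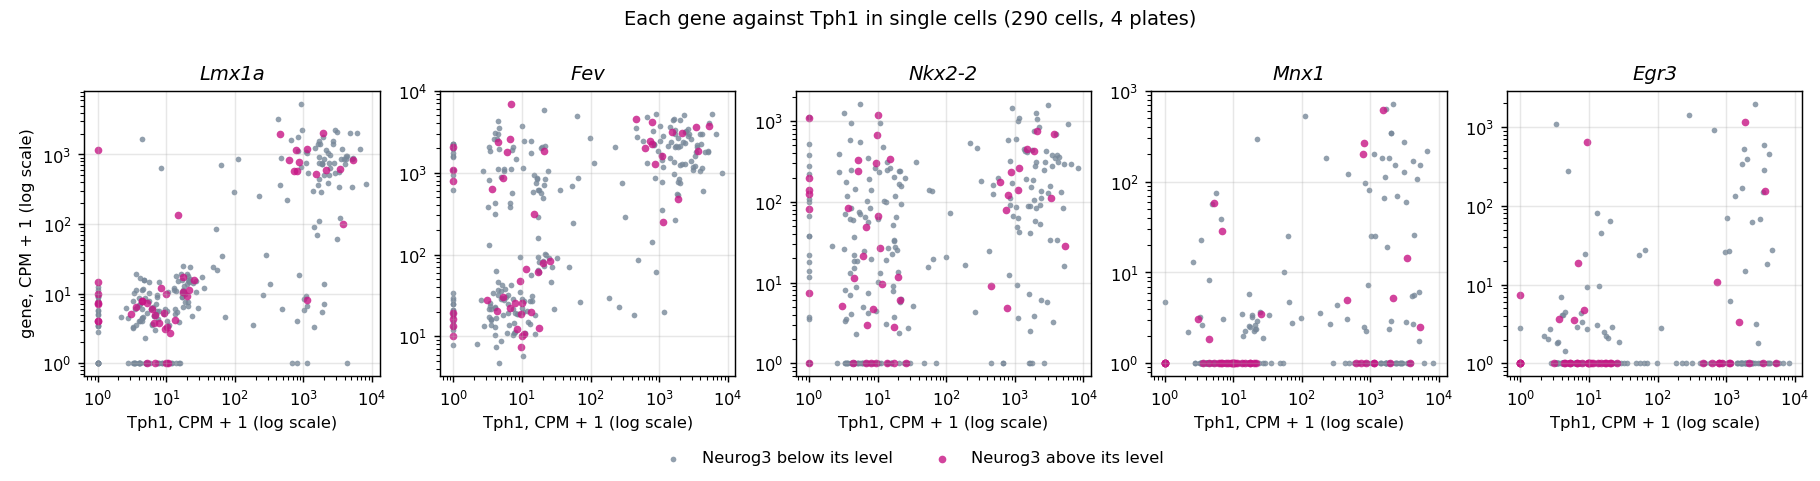
Each of the 5 genes (y axis, CPM + 1) against Tph1 (x axis, CPM + 1) in 290 cells of 4 plates, both on log scales, with cells above the Neurog3 level in magenta. Of the cells above the level of Lmx1a, Fev and Nkx2-2, 87.8%, 55.0% and 49.3% are above the Tph1 level. Each of the 3 also reaches high values in cells with little Tph1, as in 1 cell with 1655 CPM of Lmx1a and 3.47 CPM of Tph1. Cells with high Tph1 and little Lmx1a occur too, such as 1 with 4376 CPM of Tph1 and 0 of Lmx1a.

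The genes most alike in pattern were found by the mean rho over the 4 plates. For Lmx1a they were Chgb (0.58), Tph1 (0.58), Tac1 (0.57), Scn3a (0.56) and Vim (0.54). Chgb encodes chromogranin B of secretory granules, Tac1 the substance P precursor, Scn3a a voltage-gated sodium channel and Vim vimentin. For Fev they were Chgb (0.67), Gch1 (0.61), Scn3a (0.58), Chga (0.56) and Tac1 (0.56). Gch1 encodes GTP cyclohydrolase, which starts the synthesis of the tetrahydrobiopterin cofactor of tryptophan hydroxylase. Nkx2-2 was closest to Chgb (0.39), Egr1 (0.38), Gnao1 (0.37), Chga (0.36) and Gng12 (0.36). Mnx1 was closest to Atf6 (0.34), Mapkapk2 (0.33), Chgb (0.32), Tmprss2 (0.32) and Ece1 (0.32). Egr3 was closest to the inducible factors Atf3 (0.30) and Egr1 (0.30), then Trmt6 (0.29), Nfic (0.28) and Shoc2 (0.28), all weak values in sparse counts.

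Tph1-high cells were tested against Neurog3-high cells on counts summed per plate and class, with the plate as a block. Plate 1 had 4 Neurog3-high cells and was not in the fit, so 3 plates entered. All 5 genes had higher values in Tph1-high cells in all 3 plates, as did 27.6% of the 10433 genes tested. Of the 5, 3 (Lmx1a, Mnx1 and Egr3) were at least 2-fold higher in every plate, as were 12.1% of all genes. No member passed the edgeR quasi-likelihood test after Benjamini-Hochberg adjustment, which called 14 genes (0.134%). For Lmx1a the log2 fold was 5.39 ± 1.34 (SE, n = 3 plates, adjusted p = 0.318), with plate ratios from 2.34 to 7.44 on the log2 scale. Fev had a log2 fold of 1.38 ± 0.34 (adjusted p = 0.318) and Nkx2-2 of 1.58 ± 0.53 (adjusted p = 0.378). Mnx1 had 4.33 ± 1.48 (adjusted p = 0.385) and Egr3 had 5.66 ± 2.27 (adjusted p = 0.471). The Egr3 fold moved with single plates, to 7.83 without plate 2, 4.00 without plate 3 and 4.02 without plate 4. The median member fold was 4.33 and the median over all genes 0.55. DESeq2 on the same sums put Lmx1a (adjusted p = 2.34e-05), Mnx1 (0.00433) and Egr3 (0.000999) past the threshold, but not Fev (0.307) or Nkx2-2 (0.242). DESeq2 called 12.9% of the genes it shared with the edgeR fit.

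Other genes of the pathway were read in the same fit. Of 7 enterochromaffin genes, all tested, 3 rose and 0 fell. They were Afp (log2 fold 8.21 ± 0.58, adjusted p = 0.0332), Tac1 (3.87 ± 0.35, adjusted p = 0.0457) and Chga (3.39 ± 0.28, adjusted p = 0.0427). Of 8 tested genes of serotonin synthesis and handling, 0 passed. Qdpr, which regenerates the cofactor of tryptophan hydroxylase, had 2.22 ± 0.42 (adjusted p = 0.169) and Maob, a monoamine oxidase, 7.26 ± 3.13 (adjusted p = 0.509). Of 20 tested enteroendocrine transcription factors, 0 passed. Foxa1, a forkhead factor, had 3.21 ± 1.22 (adjusted p = 0.434), Isl1, a LIM-homeodomain factor, had -5.26 ± 1.40 (adjusted p = 0.325), and Sox4, an SRY-box factor, had -2.41 ± 0.45 (adjusted p = 0.161). Of the 4 tested paralogs of the members, 0 passed. Leaving out 1 plate left 0 or 1 genes called, none of these among them.

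Immediate-early genes stood beside Egr3 in this contrast. Of 7 listed genes, 0 passed after adjustment, and 5 had an unadjusted p under 0.05, all with higher values in Tph1-high cells, as did 7.27% of all genes. Atf3 had a log2 fold of 3.21 ± 0.41 (adjusted p = 0.0687) and Fosb of 2.16 ± 0.33 (adjusted p = 0.0981). The list's median log2 fold was 1.69 against 0.55 over all genes. The part of such induction or of depth in the member values was not tested.

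Tph1-high cells were then tested against peptide-high cells, which compares the serotonin range with the peptide-hormone range in all 4 plates. Lmx1a rose 82.3-fold in the Tph1-high cells, a log2 fold of 6.36 ± 0.39 (SE, n = 4 plates, edgeR adjusted p = 0.00376), with plate ratios from 5.85 to 6.73 on the log2 scale. The test called 9 of 10595 genes (0.0849%), Lmx1a being the 1 member among them, with the smallest p of all genes outside the class rule. Lmx1a passed the threshold in the 11 alternatives that change the fit, which include leaving out each plate, with log2 folds from 6.12 to 6.61 and adjusted p up to 0.0402. The other 4 members had higher values in all 4 plates but did not pass. Fev had 1.60 ± 0.52 (adjusted p = 0.640), Nkx2-2 had 1.52 ± 0.45 (adjusted p = 0.528), Mnx1 had 5.80 ± 1.71 (adjusted p = 0.528) and Egr3 had 4.50 ± 1.56 (adjusted p = 0.712). All 5 members were higher in every plate, as were 11.7% of all genes, and 3 were at least 2-fold higher in every plate, as were 2.98% of all genes. The median member fold was 4.50 and that of all genes 0.29. DESeq2 called Lmx1a, Mnx1 and Egr3 here, among 6.02% of the genes it shared with the fit.

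In that contrast 1 of 20 tested enteroendocrine transcription factors passed. Isl1 fell by 8.54 ± 0.66 on the log2 scale (adjusted p = 0.0136). It was 0 CPM in both classes of plate 1, and 1.50, 0.44 and 1.89 CPM in Tph1-high against 553, 293 and 507 CPM in peptide-high cells of plates 2 to 4. Lmx1a and Isl1, both LIM-homeodomain genes, thus passed in opposite directions. Of the 7 enterochromaffin genes, 1 rose, Afp (8.03 ± 0.61, adjusted p = 0.00651). Isl1 was not called without duodenum replicate 2, duodenum replicate 3 or jejunum replicate 1, and Afp was not called without jejunum replicate 1, where Lmx1a was the 1 gene called. Of the 8 serotonin genes 0 passed, with Slc18a1, a vesicular monoamine transporter, at 1.98 ± 0.36 and Ddc, the decarboxylase that completes serotonin synthesis, at 1.54 ± 0.28 (both adjusted p = 0.203). Of the 7 immediate-early genes 0 passed and 4 had an unadjusted p under 0.05 with higher values in Tph1-high cells, as did 4.01% of all genes.

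**Figure D4:**
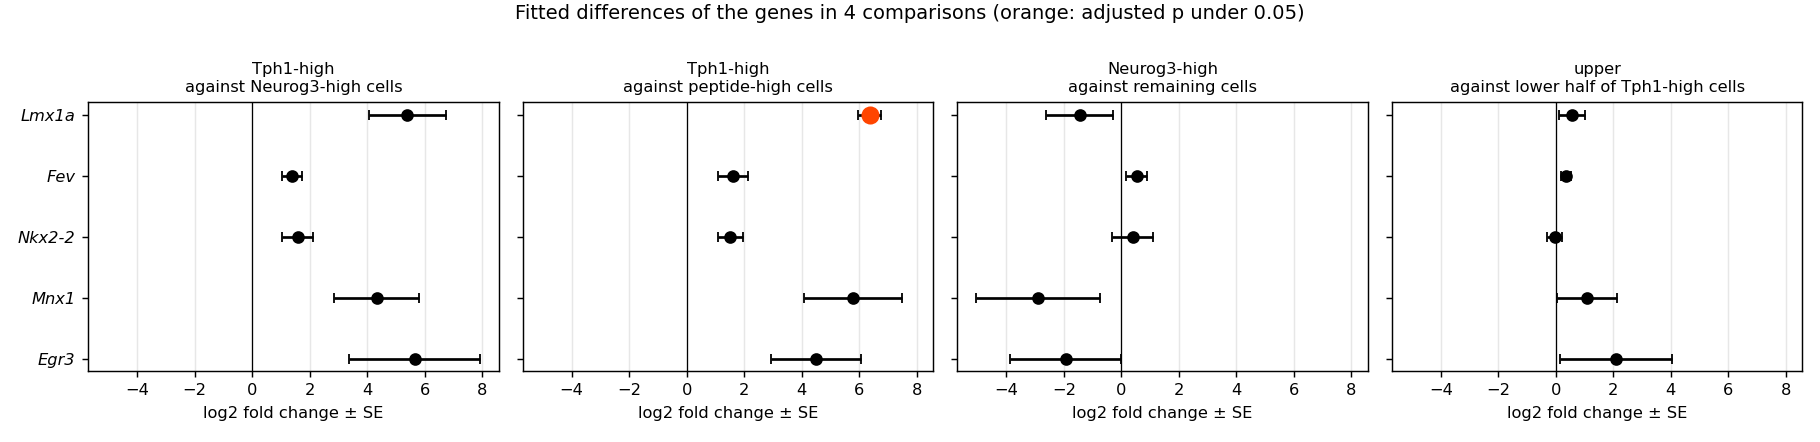
Fitted log2 fold change ± SE (x axis) of the 5 genes (y axis) in the 4 comparisons of summed counts, over 3 plates in the comparisons with Neurog3-high cells and 4 plates in the others. Lmx1a against peptide-high cells (6.36 ± 0.39, orange) is the value past the adjusted threshold.

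Neurog3-high cells were tested against the remaining cells to see whether any member accompanied Neurog3 without Tph1. The fit (plates 2, 3 and 4) called 0 of 10587 genes (0%), with 391 at an unadjusted p under 0.05. DESeq2 called 3.50% of the genes it shared with the fit and none of the 5 members. Fev had 0.54 ± 0.37, Nkx2-2 0.39 ± 0.73, Lmx1a -1.45 ± 1.16, Mnx1 -2.89 ± 2.17 and Egr3 -1.94 ± 1.94 on the log2 scale (edgeR adjusted p = 0.999 for each). The median over all genes was -0.41. Fev had higher values in all 3 plates, as did 8.46% of all genes, though by only 0.02 on the log2 scale in 1 of them. Of 21 tested enteroendocrine transcription factors 0 passed. Neurod2, a basic helix-loop-helix factor, had 1.47 ± 0.44 (adjusted p = 0.999).

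Within the Tph1-high cells, those above the plate's median Tph1 CPM were tested against those below it. The fit over 4 plates called 0 of 9149 genes (0%), with 253 at an unadjusted p under 0.05, and DESeq2 called 2.54% of the genes it shared with the fit and none of the members. Fev had 0.36 ± 0.18 and was higher in all 4 plates, as were 6.01% of all genes, and Lmx1a had 0.56 ± 0.46. Nkx2-2 had -0.05 ± 0.26, Mnx1 1.09 ± 1.05 and Egr3 2.09 ± 1.96 (edgeR adjusted p = 1 for each). Counted by cell, Lmx1a was above its level in 4 of 9, 7 of 11, 3 of 7 and 10 of 13 cells with the lower Tph1 levels in plates 1 to 4. Among those with the higher levels it was 9 of 9, 10 of 12, 5 of 7 and 12 of 13. The share was higher among the cells with more Tph1 in every plate, although the summed level in plate 2 was lower there (790.0 against 1479 CPM). The cells with more Tph1 were also deeper, with medians of 423405, 522624, 538491 and 876416 counts in plates 1 to 4 against 367678, 474939, 455006 and 875750. The part of depth in these shares was not tested.

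Between plates the whole-plate levels differed. Lmx1a was 234, 369, 216 and 429 CPM in plates 1 to 4, Fev 1052, 1311, 630.1 and 1462 CPM, and Nkx2-2 117.5, 103, 223.6 and 177 CPM. Mnx1 was 12.3, 31.6, 19.5 and 40.8 CPM, and Egr3 was 49.4, 51.2, 24.7 and 15.7 CPM. The jejunum plate was highest for Lmx1a, Fev and Mnx1 and lowest for Egr3. It also had the largest share of Tph1-high cells, 26 of 63 against 18 of 72, 23 of 83 and 14 of 72 in plates 1 to 3. With 1 jejunum plate against 3 duodenum plates, and 1 plate of 39 weeks against 3 of 12 weeks, an exact permutation test cannot go below p = 0.25. These levels are therefore a description.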

How the data were processed

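Single-cell RNA of 4 plates (4 samples) was analysed. The values are counts per gene and well, deposited by the authors as whole numbers in 1 table. Per the submitters' processing notes the build was mm10 and the tools were bcl2fastq 2.17.1.14, cutadapt 1.10, Bowtie2 2.2.8, STAR 2.5.3a, UMI-tools 0.4.4 and HTSeq 0.6.1, with no roles given. The sources used here do not give the authors' cell filter or say whether copies were collapsed. In the deposited counts, 27.9% of values above 0 equal 1. Columns were assigned to plates by their experiment number and the pool number in the titles, which left 0 unassigned. Well positions repeat between plates (41 of 92 occur in all 4), so cells were identified by plate and well. No cell was left out and no doublet caller was run.

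Plates, never cells, were the replicates. Nothing in the labels says that the 12-week plates came from separate mice, so p-values measure the spread between these plates. Counts were summed per plate and class, with at least 5 cells of both classes (10 Tph1-high cells for the split at the median Tph1 CPM), and tested with edgeR 4.0.16 (quasi-likelihood, TMM, filterByExpr, plate block; R 4.3.3) and Benjamini-Hochberg adjustment at 0.05. SE is the log2 fold divided by the root of F. Plate ratios use CPM + 1. The 9 genes of the class rule were left out of counts of called genes. The scripts were tested on simulated data. Alternatives were DESeq2 1.42.0, limma 3.58.1 on log2(mean CPM + 1), no filter, no plate block, levels of 1% and 0.2%, cells thinned to 100000 counts (which left out 0 cells), at least 3 cells, and leaving out each plate. Intervals are exact (Clopper-Pearson, 95%), and a count of 0 was given a limit of 3 cells. These intervals treat pooled cells as independent and do not hold the spread between plates. Named genes beyond the members are, per list, up to 3 past the threshold per direction or, with none, up to 2 with at least 2-fold in every plate, and the 5 genes most alike to each member. The members, lists and cross-well level were chosen with earlier results of these data known.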

Additional observations from a re-analysis of the deposited data

Results flagged for a closer look

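In 4 results every duodenum plate in the fit moved one way and the jejunum plate the other, and this difference was not tested. For Lmx1a in Neurog3-high against remaining cells, the log2 ratio was 0.75 in the jejunum plate and -2.72 and -1.79 in the 2 duodenum plates. The jejunum value rests on 1 cell, and the duodenum plate outside the fit, plate 1, also had a higher level in its Neurog3-high cells (314 against 31.5 CPM), again from 1 cell. For Nkx2-2 in the same comparison the ratio was -0.76 in jejunum and 0.16 and 1.89 in duodenum.

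Between the Tph1-high cells above and below the plate's median Tph1 CPM, Nkx2-2 had a log2 ratio of 0.27 in jejunum and from -0.31 to -0.02 in 3 duodenum plates. Mnx1 had -0.72 in jejunum and from 0.49 to 3.29 in duodenum. None of these results passed the adjusted threshold in its comparison.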

How the results depend on the processing

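Counts of called genes depended on the processing more than the members' directions did. For Tph1-high against Neurog3-high cells (14 genes as reported), DESeq2 called 1439 of all genes with counts (1160 higher, 279 lower), no filter 92 (27 higher, 65 lower), the 1% level 49 (12 higher, 37 lower), the 0.2% level 0 (plate 4, with 4 Neurog3-high cells there, drops out), thinned cells 105 (38 higher, 67 lower), at least 3 cells (which adds plate 1) 105 (25 higher, 80 lower) and limma on mean CPM 58 (11 higher, 47 lower). Leaving out duodenum replicate 2, duodenum replicate 3 or jejunum replicate 1 gave 0, 1 and 0. For Tph1-high against peptide-high cells (9 genes), DESeq2 called 773, no filter 26 and thinned cells 18, and leaving out 1 plate gave 1 to 10, with 4 without duodenum replicate 2 and 1 (Lmx1a) without jejunum replicate 1. For Neurog3-high against remaining cells (0 genes), DESeq2 called 415 and leaving out 1 plate gave 0 to 1, with 1 without duodenum replicate 3. For the Tph1-high cells split by Tph1 CPM (0 genes), DESeq2 called 287. Without the replicate block the first 2 comparisons called 19 and 13 genes. The plates supply both classes of each comparison, so they pair the sums by construction.

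Of 222 member folds under an alternative, 211 kept direction and side of the threshold, 5 passed newly (Lmx1a, Mnx1 and Egr3 with DESeq2) and 6 reversed. All 5 members stayed higher in Tph1-high cells in the 11 alternatives against Neurog3-high cells and the 11 that change the fit against peptide-high cells, where at least 3 cells per class gives the same sums. In Neurog3-high against remaining cells, Lmx1a was 0.041 without the replicate block and 0.012 at the 1% level, Nkx2-2 ran from -0.23 without duodenum replicate 2 to 0.95 without jejunum replicate 1, and Egr3 was 0.028 at the 0.2% level, again without plate 4. In the split by Tph1 CPM, Nkx2-2 was 0.36 at the 0.2% level and ran from -0.13 without jejunum replicate 1 to 0.024 without duodenum replicate 1. The cause was not tested. For Lmx1a in Tph1-high against Neurog3-high cells, the log2 fold ran from 3.74 without the replicate block to 6.76 without jejunum replicate 1, and it was 4.00 with plate 1 added, all higher in Tph1-high cells. There Egr3 ran from 2.47 without the replicate block to 7.83 without duodenum replicate 2, with 4.00 without duodenum replicate 3 and 4.02 without jejunum replicate 1, and Mnx1 from 3.50 without jejunum replicate 1 to 5.05 with plate 1 added. Nkx2-2 ran from 0.60 at the 0.2% level, without plate 4, to 2.01 without duodenum replicate 2. Of 40 shares of cells recomputed with at least 5 counts in place of the level or with thinned cells, 11 left their interval. With at least 5 counts, the Lmx1a share in plate 4 was 88.9%, against 42.9%. For Fev it was 86.1%, 96.4%, 87.5% and 100% in plates 1 to 4, against 43.1%, 54.2%, 41.7% and 71.4%. For Nkx2-2 it was 44.4%, 62.7%, 59.7% and 82.5%, against 40.3%, 45.8%, 43.1% and 60.3%.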
